A study of Bos taurus with 18 samples.

Results

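Clone M was 1 of 17 single-cell-derived clones of bovine bone marrow mesenchymal stem cells (MSCs) whose messenger RNA was sequenced together with 1 heterogeneous, uncloned MSC population, 18 libraries in all. It was set against the 16 other clones, and the heterogeneous population was left out of that comparison. Clone M was chosen by its own readout, the number of genes called in it. When each clone in turn was tested against the remaining 16 with edgeR's quasi-likelihood test, clone N had 86 genes past a Benjamini-Hochberg adjusted p of 0.05, clone M had 4, and each of the remaining 15 clones had 0. The 4 genes were CRABP1, CADPS2, RYR3 and ACSL3. Everything that compares clone M with the other clones is therefore a description of the clone that the test picked, and it carries no test of its own.

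The study asked whether the transcriptome of an undifferentiated clone could tell beforehand how much cartilage-like matrix its cells would later lay down. MSCs came from the tibial and femoral marrow of juvenile cows, and colonies founded by single cells were expanded in monolayer on tissue culture plastic in basal medium (DMEM, FBS and antibiotics) without a chondrogenic stimulus. Polyadenylated RNA was collected at passage 1. By its letter, clone M was among the clones whose limited cell number later allowed only 1 chondrogenic pellet. The study's pellet list also names a clone W, which is not a library here, and lacks clones A and N. The letters therefore do not match in full. The labels give neither the animal behind each clone nor a batch, and all 17 clones carry the same cell type, medium and library kit. Clone M is 1 culture and 1 library. A standard error given below was derived from edgeR's test, as the absolute log2 difference divided by the square root of its F statistic. The spread behind it comes from the 16 other clones and is moderated across genes, with no replicate of clone M.

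MSCs are plastic-adherent stromal cells of the marrow that can be driven towards bone, cartilage and fat. A culture grown from 1 cell is not a uniform product, since its cells divide at different rates and start towards different lineages, but it carries forward whatever the founding cell passed on. The genes below belong to those processes: proteins that bind vitamin A derivatives, calcium channels, vesicle release, lipid synthesis, division, and the collagenous matrix of bone and fibrous tissue. In a bulk library, fewer cells of a type and less RNA per cell cannot be told apart.

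The library of clone M was the deepest, with 18458157 reads on genes against 11484812 to 17319929 in the other clones. Its reads were also the most concentrated: the 50 most abundant genes held 40.1% of them, against at most 37.8% in any other clone. COL1A1, COL1A2, COL3A1 and SPARC alone took 21.2% in clone M, between 4.60% and 19.4% in the other clones, and 20.7% in the heterogeneous population. Levels are given as CPM, read counts per megaread of library, with library sizes scaled by the trimmed mean of M values (TMM), which corrects for such a concentration. With plain library totals in its place, clone M would shift by -0.18 on the log2 scale against the mean of the other clones. Many of the leads and counts that this ended or moved are given beside the results. Of list members not treated there, COL9A2, ATP2B1, STX2, SPRY4, NOTCH1 and S100B also fell below all others with library totals. A count of 3 reads, the most that a true level could leave unseen when 0 reads are counted, was 0.182 CPM in clone M and 0.169 to 0.272 CPM in the other clones, for counting error only.

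Of 11761 genes tested, 4 (0.0340%) passed the threshold as higher in clone M and 0 (0%) as lower. At an unadjusted p under 0.05 there were 451 genes (3.83%), 219 higher and 232 lower, and DESeq2 called 3 higher and 5 lower at the same adjusted threshold. The calls depended on the model: limma-voom called 26 genes, all higher, without ACSL3, DESeq2 kept RYR3 and ACSL3 but not CRABP1 and CADPS2, and edgeR called 0 once the heterogeneous population was added to the other clones. The threshold fell between ACSL3, with an edgeR adjusted p of 0.0217, and TRDN, with 0.0532. A wider view is the number of genes in which clone M lay outside the range of all 16 others, which was 711 above (6.05%) and 760 below (6.46%). Clone M ranked 8th and 7th of the 17 clones in these counts, so by this measure it stood out no more than a middling clone. With library totals the counts became 291 above and 1337 below.

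CRABP1 binds retinoic acid in the cytoplasm and limits how much of it reaches the nucleus. Clone M had 266 reads, or 16.1 CPM. The other 16 clones ran from 0 in clone D through a median of 0.240 to 2.24 CPM in clone E, the next highest being clone P at 0.903 CPM. Every other clone thus held CRABP1 at a trace, and clone E alone of them exceeded 1 CPM. Clone M stood 7.20-fold over clone E, and the fitted log2 difference from the other clones was 5.26 ± 0.82 (SE).

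CADPS2 encodes an activator that primes dense-core vesicles for calcium-triggered release. Clone M had 41 reads, or 2.48 CPM. The other clones held between 0 and 4 reads each, with a median of 0.0710 CPM and a highest level of 0.237 CPM in clone H. In 5 of them no read was counted. Outside clone M the gene was therefore at or near the counting floor throughout, so the fitted log2 difference of 4.56 ± 0.72 depends on how near 0 the other clones are taken to be. In the RefSeq gene table of ARS-UCD2.0, a later assembly than the one used for counting, the gene RNF148 overlaps CADPS2. Reads found ambiguous between genes were tallied apart, 0.164% of the reads in clone M, and were not counted. Whether any read of RNF148 entered the count of CADPS2 was not tested.

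RYR3 is a ryanodine receptor, a channel that lets calcium out of the endoplasmic reticulum. Clone M had 141 reads, or 8.54 CPM. The other clones ran from 0.355 CPM in clone D through a median of 0.938 to 1.81 CPM in clone J. All 16 others held the gene at a low level, with 4 to 25 reads each, and clone M lay 4.71-fold over the highest of them. The log2 difference was 3.06 ± 0.39.

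ACSL3 activates long-chain fatty acids to their coenzyme A esters and sits on the endoplasmic reticulum and on nascent lipid droplets. It was the one abundant gene of the 4, with 8531 reads or 517 CPM in clone M. The other clones ran from 34.1 CPM in clone N through a median of 96.4 to 146 CPM in clone O. The gene was thus active in every clone, and clone M lay 3.54-fold over the highest of the others, with a log2 difference of 2.38 ± 0.38. In the same later gene table a pseudogene, LOC508628, overlaps ACSL3.

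**Figure D1:**
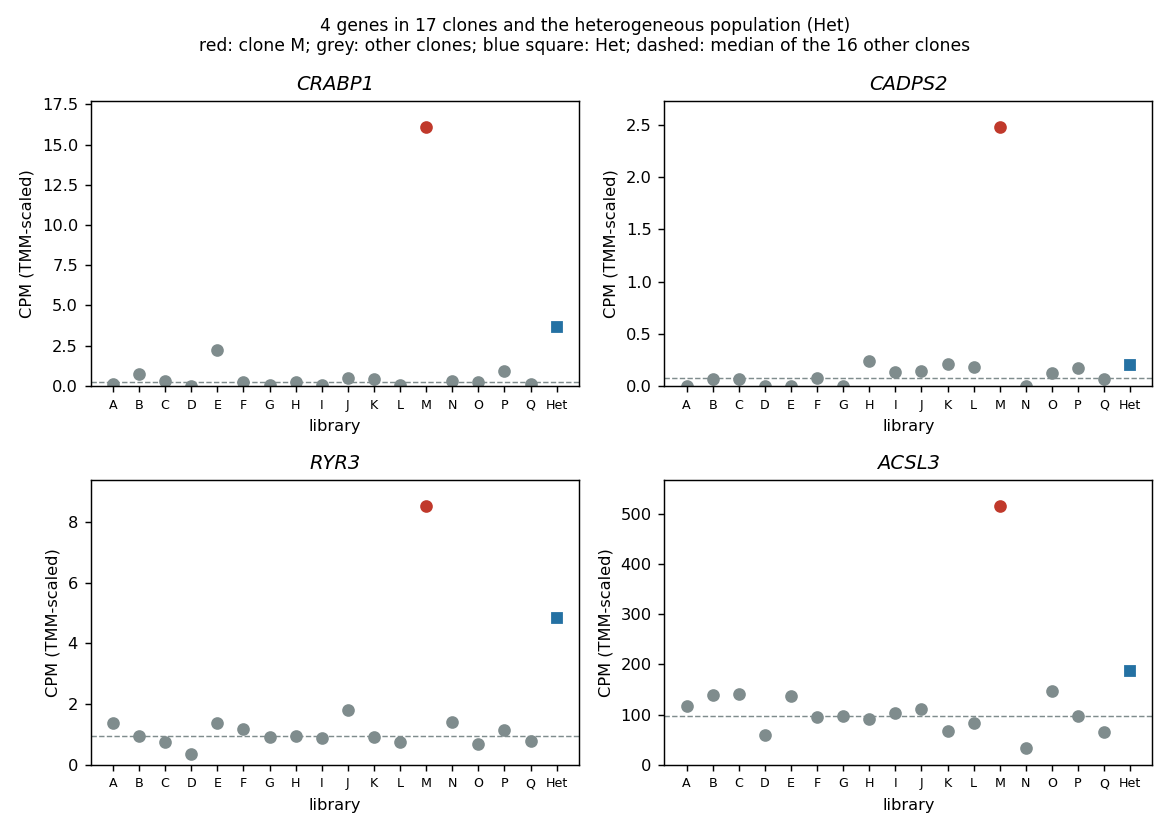
Level of CRABP1, CADPS2, RYR3 and ACSL3 (y axis, TMM-scaled CPM from 0) in each of the 17 clones and the heterogeneous population (Het, x axis), 1 point per library. Clone M is alone at the top of every panel, and Het is the next highest library for CRABP1 (3.64 CPM), RYR3 (4.83 CPM) and ACSL3 (186 CPM) but not for CADPS2 (0.199 CPM).

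The heterogeneous population, which the choice of clone M did not use, held 55 reads of CRABP1, 73 of RYR3 and 2809 of ACSL3. Its levels of 3.64, 4.83 and 186 CPM were above all 16 other clones and below clone M for each of the 3 genes. Its level of CADPS2, 3 reads or 0.199 CPM, lay within the range of the other clones. The heterogeneous population exceeded all 16 other clones in 1180 of the 11761 genes (10%), so a gene in that position was common. It is 1 library, and no replicate spread can be given for it. It also held reads of the macrophage markers CD163 (667), CD14 (218) and MSR1 (317), where no clone had more than 12, 11 and 11. The part of such cells in its levels was not tested.

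Whether the 4 genes varied together outside clone M was tested across the 16 other clones, on log2(CPM + 0.25), for the 6 possible pairs. CRABP1 and RYR3 had a Pearson r of 0.529 (permutation test, two-sided, p = 0.0393, adjusted over the 6 pairs 0.236) and a Spearman rho of 0.600 (permutation p = 0.0159, adjusted 0.0955). Without clones E and P, the farthest from the median of CRABP1, r was 0.502. The Pearson r values of the other pairs lay between -0.016 for CADPS2 with RYR3 and 0.320 for CRABP1 with ACSL3, and the lowest adjusted permutation p among them was 0.666. CADPS2, at 0 to 4 reads per clone, cannot show a relation at this depth, and it enters 3 of the 6 pairs. CRABP1 was also sparse, at 0 to 3 reads in clones A, D, F, G, I, L and Q, so its order among those clones is largely counting error. Adjusted over the 3 pairs without CADPS2, a choice made after seeing the data, the permutation p of CRABP1 with RYR3 was 0.0477 for rho and 0.118 for r. Whether this pair passed thus depended on the measure and on the pairs adjusted over.

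The next 8 genes by the same ranking are described here one by one. TRDN encodes triadin, which anchors the ryanodine receptor complex in striated muscle, and clone M had 72 reads or 4.36 CPM of it. The other clones ran from 0 to 0.664 CPM in clone F, with 8 of them at 0, so its log2 difference of 5.28 ± 0.93 rests on a comparison with almost no reads. NEB encodes nebulin, the giant protein of the thin filament, and reached 11.8 CPM in clone M against 0.771 to 5.03 CPM (median 1.44) in the others. THBS4, a thrombospondin of tendon and muscle matrix, was at 5.39 CPM against 0 to 0.722 CPM (median 0.136). These 3 genes lay above all other clones without overlap, as the choice of genes required. None passed edgeR's threshold with all clones, but limma-voom called all 3, and edgeR called TRDN without clone F and NEB without clone Q.

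ITGA4, the integrin subunit of the fibronectin and VCAM1 receptor, was at 16.2 CPM (267 reads) in clone M against 0 to 2.51 CPM (median 0.428) in the others, a log2 difference of 4.24 ± 0.90. CERKL, which neighbours ITGA4 and overlaps it in the same gene table, was at 1.64 CPM (27 reads) against at most 0.295 CPM, and since the sources do not say that strand was used in counting, reads in the shared stretch cannot be assigned. EPHA3, an ephrin receptor, was at 7.15 CPM against 0 to 1.09 CPM (median 0.0964). PLCL1, a phospholipase C-like protein without catalytic activity, was at 7.63 CPM against 0 to 1.46 CPM (median 0.213). JAKMIP2, a Golgi-associated coiled-coil protein, differed less in size but was well measured everywhere, at 23.4 CPM in clone M against 7.28 to 14.3 CPM (median 10.2), a log2 difference of 1.21 ± 0.24. All 5 were called by limma-voom. JAKMIP2 was also called by DESeq2, and by edgeR without clone L. PLCL1 was called by edgeR without clone N and without clone O.

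In the other direction, no gene passed edgeR's threshold, and DESeq2 called HDAC9, IGF2BP3, PHF17, FBXW12 and MRGPRF. HDAC9, a class IIa histone deacetylase that represses MEF2-driven transcription, was at 7.88 CPM in clone M against 28.6 to 91.3 CPM (median 48.8) in the other clones. The lowest other clone, Q, was thus 3.64-fold above clone M, and the log2 difference was -2.74 ± 0.65. The heterogeneous population, at 17.1 CPM, was also under all 16 other clones. IGF2BP3, an RNA-binding protein of fetal and proliferating cells, was at 1.39 CPM (23 reads) against 3.36 to 27.7 CPM (median 14.1), a log2 difference of -3.51 ± 0.99. EPPK1, which encodes the cytoskeletal linker epiplakin, was at 0.303 CPM against 1.36 to 6.99 CPM. PHF17, a chromatin reader of histone acetyltransferase complexes, was at 9.81 CPM against 17.1 to 29.9 CPM (median 23.4), and the mitochondrial valyl-tRNA synthetase VARS2 at 15.7 CPM against 21.3 to 34.3 CPM. FBXW12, PACSIN2, ATP10A, SLCO3A1, SUSD1 and B3GNT8 also lay below all others, with log2 differences between -2.73 for B3GNT8 and -0.94 for PACSIN2. C3H1orf210 had a single read in clone M against a lowest level of 1.46 CPM elsewhere.

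**Figure D2:**
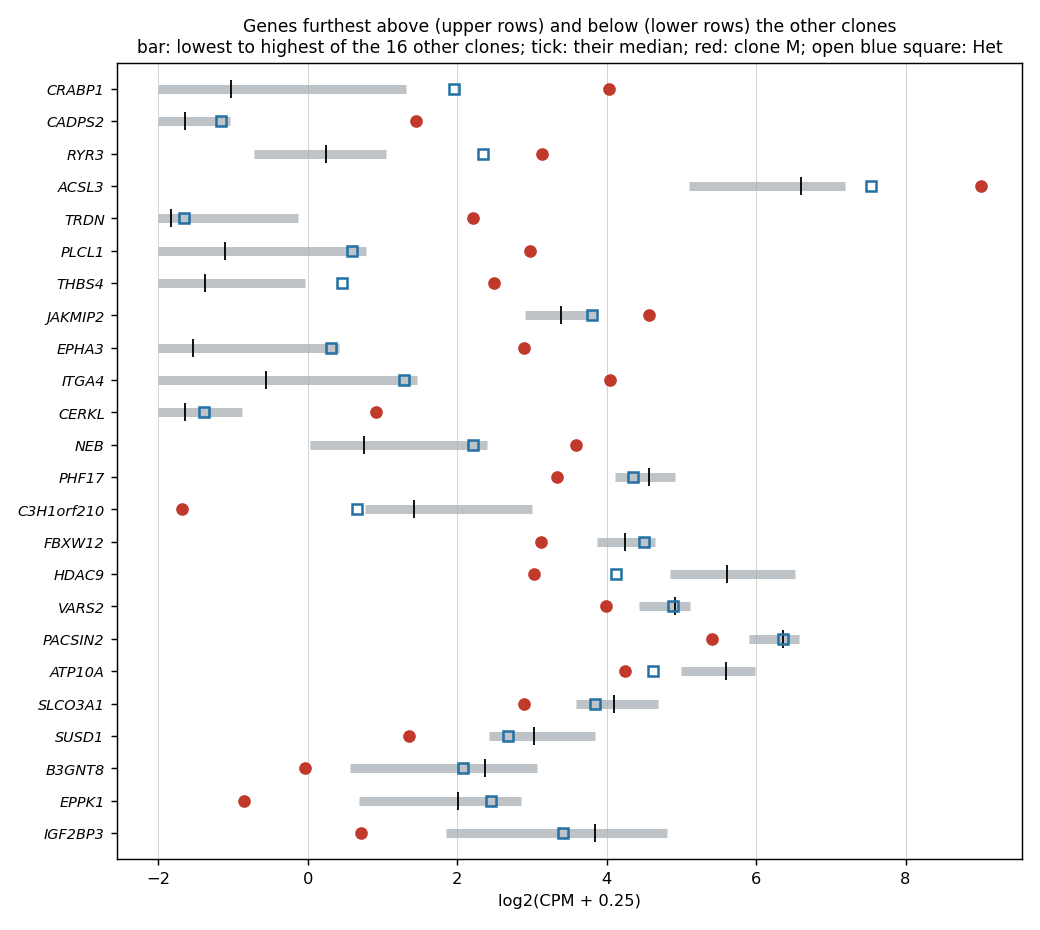
The 12 genes furthest above and the 12 furthest below the other clones, ordered by edgeR's p within each direction; x axis log2(CPM + 0.25), bar from the lowest to the highest of the 16 other clones with a tick at their median, filled circle clone M, open square Het. Clone M lies outside every bar because the genes were chosen so; the bars that start at -2 are those with at least 1 clone at 0 reads.

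The broadest group to lie outside the range was that of DNA replication and mitosis. Clone M was below all 16 other clones in 26 of 29 tested genes (of 30 listed) and above in 0, where 6.46% of all genes were below, and the median log2 difference was -2.57 against -0.04 over all genes tested. MKI67, the proliferation antigen of dividing nuclei, was at 21.7 CPM in clone M against 48.9 CPM in clone B, a median of 94.5 and 597 CPM in clone O. TOP2A, the topoisomerase that untangles replicated chromosomes, was at 12.4 CPM against 32.4 to 313 CPM (median 59.1). RRM2, the ribonucleotide reductase subunit that supplies deoxynucleotides, was at 12 CPM against 31.2 to 492 CPM (median 54.7).

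The same held across the phases of the cycle. The mitotic cyclins CCNB1 and CCNB2 were at 2.61 and 2.3 CPM in clone M, where the lowest other clones had 5.85 and 5.94 CPM. CDK1, their kinase partner, was at 2.0 CPM against a lowest of 4.40 CPM. The helicase subunits MCM2 to MCM6 were also below all others, though by less, MCM6 at 38.4 against 38.5 CPM in clone D being almost level. The 3 genes within the range were MCM7, CCNE1 and CDT1. CCNE1, the cyclin of entry into S phase, was at 6.18 CPM, 13th of the 17 clones.

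Summed over the 29 genes, clone M had 322 CPM. The 12 nearest clones ran from 474 CPM in clone B to 1475 CPM in clone I, and clones G, L, C and O formed a set apart at 3189 to 3832 CPM, which raises the mean of the other clones and the standard errors, 1.73 for MKI67. Clone M was nevertheless below the lowest clone, and 26 genes remained below all others with library totals and without clone N. The heterogeneous population was lower still, with 260 CPM, and was below clone M in 23 of the 29 genes.

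**Figure D3:**
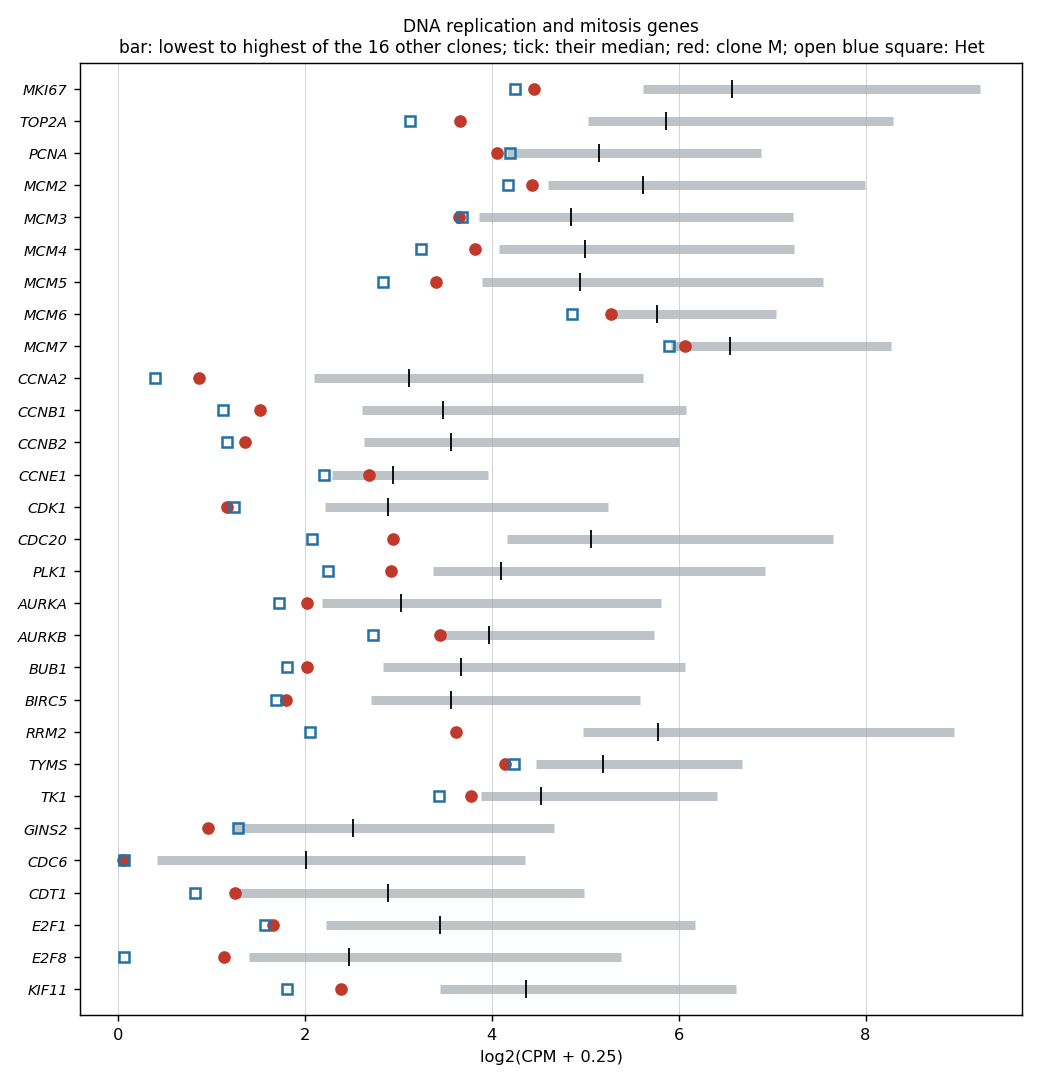
The 29 tested DNA replication and mitosis genes; x axis log2(CPM + 0.25), bar from the lowest to the highest of the 16 other clones with a tick at their median, filled circle clone M, open square Het. Clone M lies to the left of the bar in 26 genes, with MCM7, CCNE1 and CDT1 as the exceptions, and Het lies near it or further left.

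Genes that restrain division were less uniform. A list of cell cycle inhibitors, p53 targets and genes tied to growth arrest had 20 tested members. Of these, 5 were above all other clones, 1 was below and 14 lay within the range, with a median log2 difference of 0.09. Over all genes the shares were 6.05% above and 6.46% below. With library totals 2 in place of 5 were above, and CDKN2A, CDKN2B and ZMAT3 fell within the range. CDKN2A and CDKN2B, neighbouring genes for inhibitors of the G1 kinases, were at 84.2 and 169 CPM in clone M, against at most 73.4 and 156 CPM, both in clone N. GADD45A, a stress-induced growth arrest gene, was at 337 CPM against at most 298 CPM. These margins were 1.15-fold or less. CDKN1A (p21) was second of 17 at 254 CPM. LMNB1, a nuclear lamin that is lost in senescent cells and is also tied to the cell cycle, was at 13.7 CPM against 21.2 to 206 CPM (median 35.6). It was the only list member below all others, and it is not an inhibitor of division.

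Osteoblast genes and collagens were partly outside the range. Of 13 tested osteoblast genes (of 14 listed), 5 were above all other clones and 0 below, where 6.05% and 6.46% of all genes were, and 8 lay within the range, with a median log2 difference of 0.78. IBSP, the bone sialoprotein of mineralising matrix, had 112 reads or 6.79 CPM in clone M, against 0 to 1.31 CPM (median 0.136) in the others, a log2 difference of 4.36 ± 1.05. SPARC (osteonectin) was at 39190 CPM against 7034 to 25892 CPM (median 17367). ALPL, the phosphatase that initiates mineral deposition, was at 13.6 CPM, but clones C and O came near it at 11.4 and 11.3 CPM while the median was 0.674. COL1A2 was at 75008 CPM against 16174 to 68000 CPM, while COL1A1, the other chain of type I collagen, was 4th of 17 at 88396 CPM, in a range of 13348 to 102950 CPM.

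The regulators of the osteoblast lineage stood closer to the rest. RUNX2 was 5th of 17 at 115 CPM and DLX5 was 3rd at 10.4 CPM. SP7 (osterix), which acts after RUNX2, was second at 67.0 CPM, under clone E at 84.2 CPM and with a median of 24.5 in the others. BGLAP (osteocalcin), a late marker, was second as well but at only 17 reads, and SPP1 (osteopontin) was at the median, 9th at 846 CPM. In the heterogeneous population SP7 was at 7.68 CPM and IBSP at 0.596 CPM, both under clone M.

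Among 12 fibroblast collagens, clone M was above all others in 4 and below in 2, where 6.05% and 6.46% of all genes were, and within the range in 6. COL3A1, the fibrillar collagen of soft connective tissue, was at 34700 CPM against 2899 to 18439 CPM (median 7460), a log2 difference of 2.06 ± 0.62, and the heterogeneous population came next at 25056 CPM. COL5A1 was at 637 CPM against at most 507 CPM, and COL6A3 exceeded the highest other clone by 1.02-fold, a lead that was lost with library totals. COL12A1 and COL14A1, which are not fibril-forming but decorate fibril surfaces, went the other way. COL12A1 was at 952 CPM against 1555 to 8736 CPM (median 2561), and COL14A1 at 98.3 CPM against 115 to 967 CPM (median 258). With library totals 3 collagens in place of 4 were above all others.

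**Figure D4:**
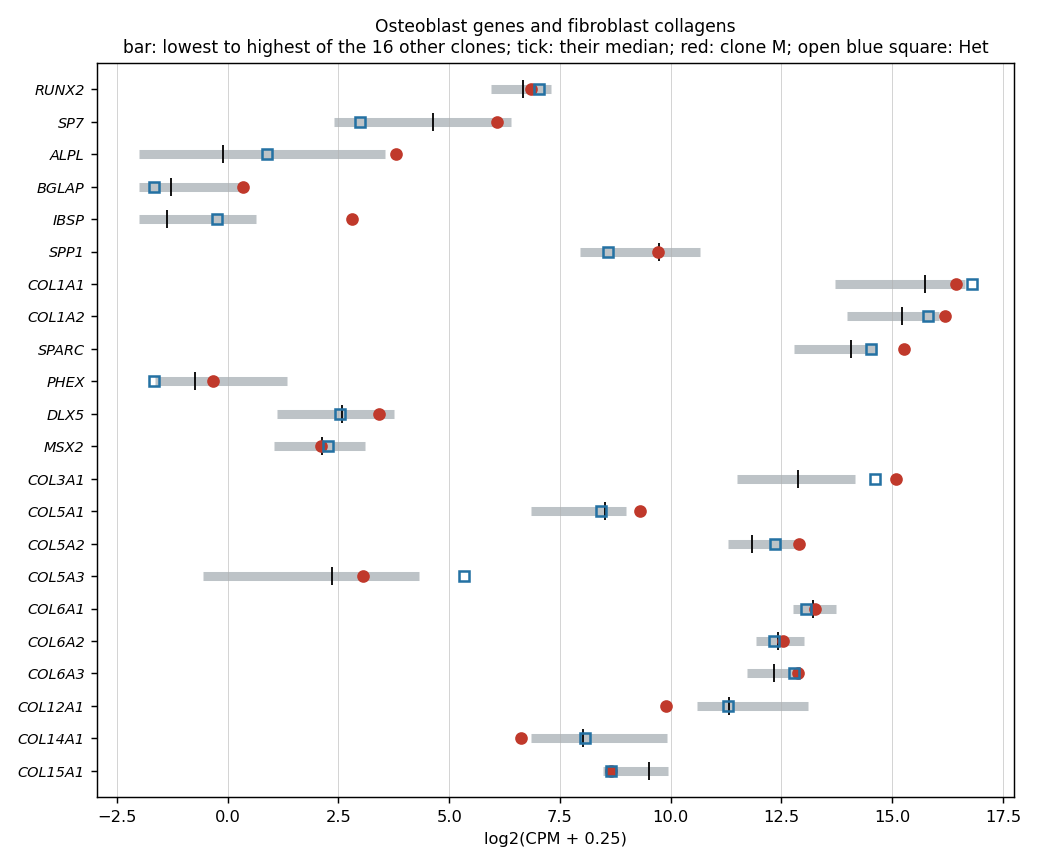
Osteoblast genes and fibroblast collagens, those reported here; x axis log2(CPM + 0.25), bar from the lowest to the highest of the 16 other clones with a tick at their median, filled circle clone M, open square Het. IBSP, SPARC and COL3A1 of clone M lie clearly to the right of the bars and COL12A1 to the left, while RUNX2, SPP1 and MSX2 lie near the ticks.

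Of 16 cartilage genes tested, clone M was above all others in 0, below in 1 (6.25%) and within the range in 15. Over all genes 6.05% were above and 6.46% below. The median log2 difference of the list was -1.58, and clone M was above the median of the other clones in 6. SOX9, the regulator of chondrocyte identity, was at 2.85 CPM (47 reads) in clone M against 3.10 CPM in clone E, a median of 11 and 23.1 CPM in clone O. ACAN (aggrecan) was 14th of 17 at 50.7 CPM, in a range of 18.4 to 2655 CPM (median 141). COL2A1 was 12th at 38.2 CPM, and COL11A1 was second at 4683 CPM.

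Of 19 tested metalloproteinases and their inhibitors, 4 were above all other clones and 0 below, where 6.05% and 6.46% of all genes were, and 15 lay within the range. The median log2 difference was 0.48, and the inhibitors TIMP1 and TIMP3 were 3rd and 15th of 17. ADAMTS1, a protease of versican and aggrecan, was at 535 CPM against 11.8 to 394 CPM (median 102.8), with clone E second. The collagenase MMP1 was at 1.27 CPM (21 reads) against 0 to 0.451 CPM and the stromelysin MMP3 at 1.58 CPM (26 reads) against 0 to 0.508 CPM, both too sparse to measure well. MMP14, a membrane-bound collagenase, was level with the highest other clone at 1407 against 1400 CPM, and within the range with library totals.

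Because ACSL3 was among the 4 genes, the other genes of lipid metabolism were examined as lists. The remaining acyl-CoA synthetases lay within the range of the other clones. ACSL1 was at 50.8 CPM (6th of 17), ACSL4 at 221 CPM (6th), ACSL5 at 7.51 CPM (8th) and ACSL6 at 0.121 CPM (15th). Of 25 tested genes of fatty acid handling, 6 were above all others and 2 below, where 6.05% and 6.46% of all genes were. Beside ACSL3 these included the desaturases FADS1, at 144 CPM against at most 117 CPM, and FADS2, at 187 CPM against at most 170 CPM. With library totals FADS2 fell within the range. The desaturase SCD was listed at 0 reads in all 18 libraries and gives no information here. CPT1A, which admits long-chain fatty acids to mitochondria for oxidation, was at 20.5 CPM against 29.6 to 164 CPM (median 71.4), and FABP5, a fatty acid carrier, at 17.2 CPM against 18.7 to 49.3 CPM.

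Cholesterol synthesis genes lay upward, but over a smaller share of their list (56.5%) than the division genes lay downward (89.7%), and by less. Of 23 tested (of 26 listed), 13 were above all other clones and 0 below, where 6.05% of all genes were above, and the median log2 difference was 0.59. HMGCS1, which makes the precursor of mevalonate, was at 1020 CPM in clone M against 203 to 854 CPM (median 510). FDFT1, the first enzyme committed to sterols, was at 269 CPM against 61.4 to 221 CPM (median 151). MSMO1 was at 232 CPM against 86.3 to 189 CPM (median 129) and CYP51A1 at 177 CPM against 67.4 to 145 CPM (median 102.6), both removing methyl groups from the sterol ring. SREBF1, a transcription factor of lipid synthesis, was at 182 CPM against 48.5 to 156 CPM (median 78.6).

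The margins over the highest other clone were small, 1.23-fold for MSMO1 and 1.01-fold for NSDHL, and clones C and O came near clone M. Summed over the 23 genes, clone M had 4799 CPM, under clone C at 5001 CPM and clone O at 4992 CPM. With library totals, 5 of the 23 cholesterol genes and 2 of the 25 fatty acid genes were above all others.

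**Figure D5:**
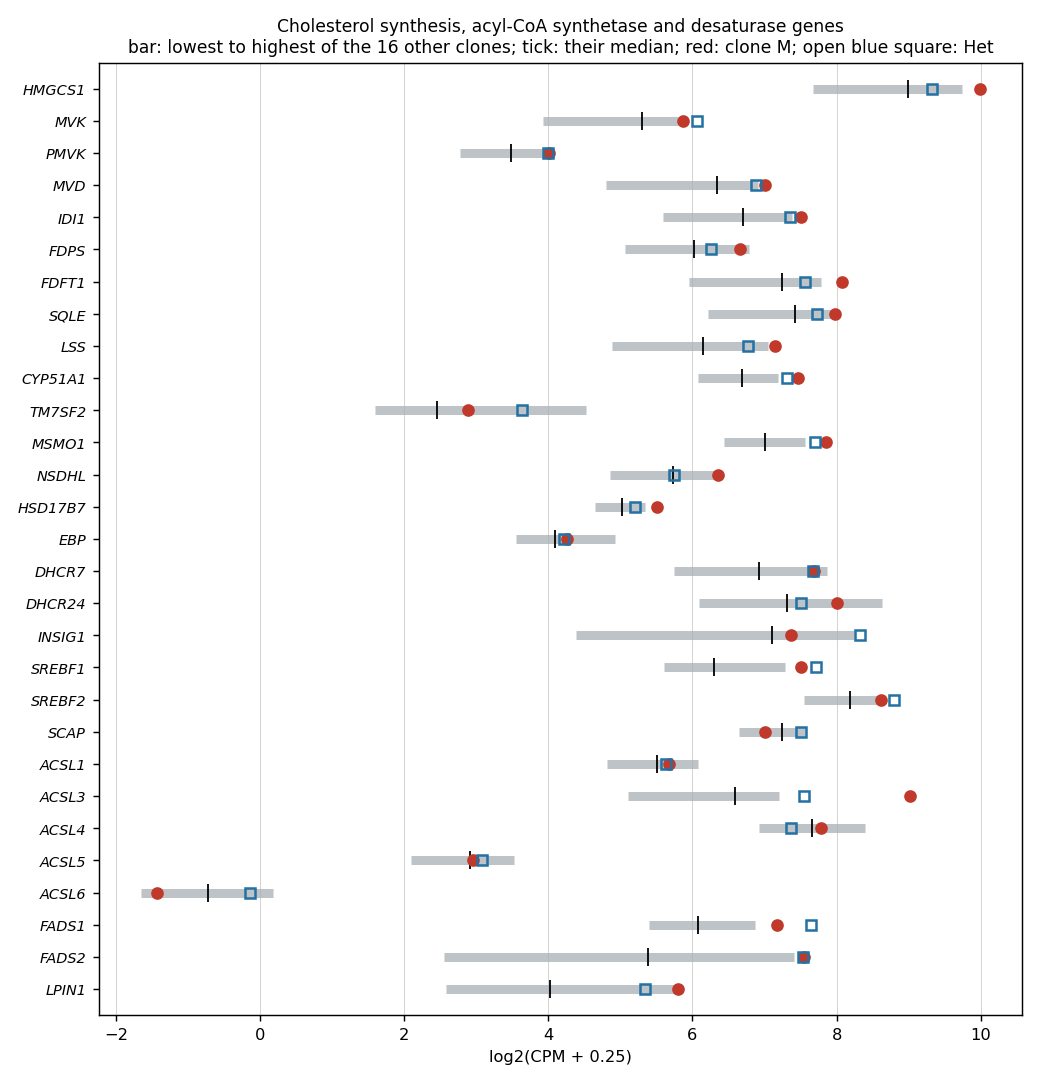
Cholesterol synthesis genes, those reported here, with acyl-CoA synthetases, FADS1, FADS2 and LPIN1; x axis log2(CPM + 0.25), bar from the lowest to the highest of the 16 other clones with a tick at their median, filled circle clone M, open square Het. Most cholesterol genes of clone M lie at or just past the right end of the bar, and ACSL3 lies 3.54-fold past it while ACSL1, ACSL4 and ACSL5 lie inside.

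The partners of the other 3 genes mostly lay within the range. In the retinoid list of 17 tested genes, 2 were above all other clones, CRABP1 and the retinol dehydrogenase RDH11, at 118 CPM against 42.5 to 92.0 CPM. The shares above and below were 11.8% each, where 6.05% and 6.46% of all genes were, and CRABP1 is 1 of the genes that picked clone M. CRABP2, which carries retinoic acid to its nuclear receptor, was second at 14.7 CPM, under clone P at 19.3 CPM. The receptors RARA, RARG and RXRA were at 122, 150 and 76.0 CPM, 13th, 8th and 13th of 17. ALDH1A1, which makes retinoic acid, was 15th at 4.06 CPM, with a median of 28.3 in the others, and CYP26B1, which breaks it down, was 16th at 0.485 CPM with a median of 4.31. TGM2 and FABP5 were below all others, and with library totals 4 genes were, CYP26B1 included.

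In the calcium list of 25 tested genes, 2 (8%) were above all other clones, RYR3 and TRDN, and 3 (12%) were below. Over all genes the shares were 6.05% and 6.46%, and RYR3 is 1 of the genes that picked clone M. The median log2 difference was -0.22. ITPR3, another calcium release channel, was at 1.88 CPM (31 reads) against 3.07 to 39.7 CPM (median 11.4). ITPR1 and ITPR2 lay within the range at 84.3 and 5.94 CPM. The pumps ATP2A3 and ATP2B4, which clear calcium from the cytoplasm, were below all others at 0.727 and 39.5 CPM, the latter by 1.04-fold. ATP2A3 had 12 reads in clone M and 12 in clone Q, so its place below clone Q came from library scaling alone. ATP2A2, the main pump of the endoplasmic reticulum, was 13th at 279 CPM.

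In the list of regulated exocytosis, 25 genes were tested. Of these, 2 (8%) were above all other clones and 3 (12%) below, where 6.05% and 6.46% of all genes were. Those above were CADPS2 and RAB27A, a GTPase of secretory granules, at 25.7 against 4.26 to 23.3 CPM. With library totals RAB27A fell within the range. Those below included VAMP3 and SYTL4, by 1.08-fold and 1.21-fold. The median log2 difference was -0.02, and clone M was above the median of the others in 14 of the 25 genes, so the list has no direction. CADPS, the paralog of CADPS2, was 12th at 2.12 CPM, in a range of 0.926 to 11.6 CPM.

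The label of the cells was compared with stromal markers. Clone M expressed ENG, THY1, NT5E and PDGFRB within the range of the other clones, at 186, 290, 349 and 326 CPM. Of 13 tested MSC surface and stromal markers, 5 were below all other clones and 0 above, where 6.46% and 6.05% of all genes were, with a median log2 difference of -0.84. PDGFRA, a platelet-derived growth factor receptor, was at 96.0 CPM against 130 to 767 CPM (median 341), CD44, the hyaluronan receptor, at 173 CPM against 241 to 553 CPM (median 353), and the chemokine CXCL12 at 34.8 CPM against 40.1 to 702 CPM (median 160). ITGB1 and ALCAM were below by 1.07-fold and 1.01-fold.

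Markers of other marrow cells were low or within the range of the other clones. Of 20 macrophage markers listed, 12 had no read in clone M, CD163, CD14 and PTPRC among them, and the 9 tested ones summed to 14.2 CPM against 18.6 to 88.2 CPM in the other clones. In the endothelial list 8 of 12 genes had no read, KDR among them, and PECAM1 had 3 reads, but ERG had 307 reads (18.6 CPM, 15th of 17), VWF 56 and TEK 16. Of the genes without a read, CDH5, ESAM, ROBO4 and CLDN5, and ITGAM and CYBB of the macrophage list, had 0 reads in every library. They give no information here, and KDR had at most 1 read in any library. The 5 tested endothelial genes summed to 23.1 CPM, within the 17.6 to 75.9 CPM of the other clones. Of 5 tested skeletal and cardiac muscle markers, MYF5 was above all other clones, at 2.12 CPM (35 reads) against 0 to 1.44 CPM, while DES was 14th at 99.9 CPM and the list summed to 170 CPM within a range of 109 to 453 CPM. In the neural and glial list, NCAM1 was above all others at 92.5 CPM against 2.54 to 46.2 CPM, and the heterogeneous population had 81.0 CPM. The part of these markers in the differences above was not tested. Cytosolic ribosomal protein genes (27 tested) and nuclear genes of the respiratory chain (25 tested) all lay within the range of the other clones, and with library totals 1 and 2 of them were below it.

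Over all 11761 genes, after each gene's mean over the 17 clones was removed, clone M was most like clone B (r = 0.448 across genes), then clone E (0.401) and clone F (0.287), and least like clones L (-0.433) and O (-0.379). Genes are not independent replicates and these values carry no p. Clones B, E and F had the next lowest summed levels of the division genes after clone M, and clones L and O were among the 4 highest. The root mean square distance of clone M from the mean of all clones was 0.550 on the log2 scale, 7th of 17, between 0.370 for clone J and 0.697 for clone N.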

How the data were processed

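Polyadenylated RNA of 17 clones and 1 heterogeneous population was sequenced as single-end reads, 1 library each. The authors aligned reads to bosTau7 with STAR 2.3.0e and deposited raw read counts per gene, made with HTSeq from RefSeq annotation release 103; SAMtools is also named in the submitters' processing notes. Whether counting used strand is not given in the sources used here. A deposited table of the whole series was not used. Each deposited file holds 16989 genes and 5 tally lines, which were left out of library sizes; reads outside genes were 19.2% in clone M and 18.8% to 26.8% in the other clones.

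From the counts, TMM factors and edgeR 4.0.16 (R 4.3.3; filterByExpr with a minimum of 10 reads, quasi-likelihood fit, Benjamini-Hochberg adjustment) compared clone M with the 16 other clones over 11761 genes. A gene could enter through clone M alone. CPM were computed on TMM-scaled libraries with a pseudocount of 0.25 for logarithms. Clones were counted as above or below when clone M exceeded or fell under all 16 others in CPM. Correlations used 100000 permutations in scipy 1.17.1. DESeq2 1.42.0 and limma 3.58.1 were alternatives, and the fit was tested on simulated data. No pair of clone libraries was alike within sampling noise, but C and O were far closer than any other pair. Their chi-square was 5.29 per gene, and the next pair, E and F, had 24.0. Both C and O were kept, so the ranges, the fitted spread and the permutation tests count them as separate clones. Whether they share an origin was not tested.

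The genes named were the 4 called genes, the 12 genes above and the 12 below all other clones with the smallest edgeR p (the 4 included), and members of 34 gene lists that lay outside the range or define their list. Clone M, the lists and the rules were chosen with earlier results of these data known, so they give no independent support. Nothing says that the clones came from separate animals, so p-values measure the spread between these clones. Gene names were used as deposited; coordinates are not given, because the only gene table at hand, of ARS-UCD2.0, is of another assembly (22 of 24 named genes matched). The values of a few list members are not reported here, though list counts and sums include them.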

Additional observations from a re-analysis of the deposited data

Results flagged for a closer look

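3 of the 4 genes that set clone M apart were also high in the heterogeneous population, a library left out of the comparison of clone M with the other clones. CRABP1 was at 3.64 CPM there against at most 2.24 CPM in the 16 other clones, RYR3 at 4.83 CPM against at most 1.81 CPM, and ACSL3 at 186 CPM against at most 146 CPM. Clone M was above that library in each, at 16.1, 8.54 and 517 CPM. The share of all genes in which the heterogeneous population exceeded all 16 other clones was 10%, and as 1 library it allows no test of the difference.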

How the results depend on the processing

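The count of 4 genes higher in clone M was unchanged with library totals, DESeq2-type size factors within edgeR, no filter on low counts or robust dispersion, and the 4 genes were the same. It was 0 with the heterogeneous population added to the other clones and 26 with limma-voom, and leaving out 1 clone at a time gave 3 to 5. The count of genes lower was 5 with DESeq2 (HDAC9, IGF2BP3, PHF17, FBXW12 and MRGPRF). With the heterogeneous population added, the log2 differences were 4.72 for CRABP1, 4.49 for CADPS2, 2.77 for RYR3 and 2.31 for ACSL3, all no longer past the threshold. With DESeq2, CRABP1 (5.28) and CADPS2 (4.68) were not past it, and with limma-voom ACSL3 (2.47) was not. ACSL3 ranged from 2.33 to 2.43 over the fits without 1 clone and lost its call without clone G (2.39). A filter of CPM above 1 in at least 2 clones removed CADPS2 and left 3 calls. Genes above and below all others were 291 and 1337 with library totals.

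For the correlations among the 16 other clones, adding the heterogeneous population moved r for CRABP1 with RYR3 from 0.529 to 0.754, which then passed. That 1 library was above all 16 other clones in both genes, at 3.64 and 4.83 CPM, so this r leans on a single extreme point. Weak correlations changed sign: CRABP1 with CADPS2 was -0.046 with a pseudocount of 1, CADPS2 with RYR3 was 0.038 with library totals, 0.221 with the heterogeneous population and 0.00079 without the 2 farthest clones, and RYR3 with ACSL3 was -0.043 with library totals and -0.263 without the 2 farthest clones. Without 1 clone at a time, r ran from -0.083 to 0.376 for CRABP1 with CADPS2, -0.307 to 0.0818 for CADPS2 with RYR3, -0.155 to 0.222 for CADPS2 with ACSL3 and -0.149 to 0.412 for RYR3 with ACSL3. The cause of these changes was not tested. No paired analysis was possible because clone M is 1 library and the numbers of the other clones pair no samples.

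Depth limits the low genes: CADPS2 and TRDN were at 0 reads in 5 and 8 of the other clones. Clone M has no replicate, so its own culture and library cannot be told apart from the clone.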

Other observations

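Developmental and signaling genes that the comparison above does not treat also placed clone M mostly within the range of the other clones. Beside each count below, the shares over all genes were 6.05% above and 6.46% below. With library totals HOXC9, TWIST1, SIX2, TGFBI, PLIN1, IFIT5, STAT2, CHAC1, DDIT3, SFRP1, NOTCH2 and P4HA1 were no longer above all others. Of 25 tested HOX genes, which keep positional identity, 2 were above all others and 0 below, and HOXC4 was at 7.21 CPM (119 reads) against 1.0 to 3.75 CPM (median 1.90), a log2 difference of 1.81 ± 0.46. Of 26 mesenchymal transcription factors, 3 were above and 1 below. TWIST1, PRRX1 and SIX2 exceeded the highest other clone by 1.05-fold or less, whereas TWIST2, a paralog of TWIST1, was at 0.909 CPM (15 reads) against 1.55 to 6.45 CPM (median 4.39).

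Of 16 FGF genes and targets, 4 were below all other clones (6.46% of all genes were) and 0 above. DUSP6 and SPRY2, feedback inhibitors of this pathway, were at 8.42 and 8.24 CPM in clone M, against lowest levels of 11.8 and 11.4 CPM elsewhere, both in clone B. Of 26 TGF-beta and BMP genes, 1 was above and 3 below (0 and 6 with library totals). ID3, a target of BMP signaling, was at 10.2 CPM against 22.1 to 71.7 CPM (median 33.7), and the BMP antagonist GREM1 was at 436 CPM against 683 to 1818 CPM (median 1054). TGFBI, a matrix protein induced by TGF-beta, was at 359 CPM, level with clone P at 349 CPM and with a median of 43.9 in the other clones. Of 10 tested adipocyte genes, CEBPA and PLIN1 were above all others at 22.5 and 7.09 CPM, by 1.14-fold and 1.08-fold, and CD36, the fatty acid receptor, had 0 reads in clone M and at most 2.03 CPM in the others.

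The remaining lists gave few genes outside the range. Of 15 interferon-stimulated genes, IFIT5 and STAT2 were above all others, by 1.01-fold and 1.08-fold, and 0 were below. Of 18 serine and ATF4 amino acid genes, 3 were above and 0 below, CHAC1 at 59.7 CPM against at most 56.5 CPM. In the Wnt list of 17 genes, the antagonist SFRP1 was above, at 48.4 CPM against 4.07 to 39.4 CPM, and the antagonist DKK2 was below, level with clone D at 2.0 CPM. In the Notch list of 10 genes, NOTCH2 was above by 1.03-fold and the ligand DLL1 was below, at 1.21 CPM against 1.73 to 7.08 CPM. Among 22 glycolysis and hypoxia genes, P4HA1 was above by 1.04-fold and PFKP was below by 1.06-fold. In the Hedgehog (8 genes), IGF (11 genes) and smooth muscle (12 genes) lists, CDON, IGF1R and VCL in turn were the only members outside the range, all below. Of 16 cytokine, chemokine and complement genes, CXCL12 and CSF1 were below. The 6 neurotrophin genes and the 1 erythroid gene tested lay within the range, BDNF falling below it with library totals.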
